A study of Mus musculus with 8 samples.

Results

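Mural cells are the contractile and supporting cells that wrap the endothelium of blood vessels, and 10 of their genes were followed here in infarcts of aged mice: 6 genes that mark pericytes (Pdgfrb, Rgs5, Cspg4, Kcnj8, Abcc9 and Anpep) and 4 that mark vascular smooth muscle (Acta2, Tagln, Myh11 and Des). They were chosen by symbol as known markers, after Ensembl identifiers had been mapped to mouse symbols, and all 10 were found among the 46078 identifiers in each table. All 10 passed the filter on low counts. Wild-type male C57BL/6J mice, 18 months old, all underwent DH stroke, that is, coagulation of the distal middle cerebral artery followed by hypoxia. Starting 1 week later, the animals received subcutaneous injections for 6 weeks, either of phosphate-buffered saline (vehicle, n = 4) or of 2-hydroxypropyl-β-cyclodextrin at 4 g/kg (HPβCD, n = 4), a ring-shaped sugar that holds cholesterol in its cavity. Infarcts were cut out by eye at 7 weeks after stroke, and polyadenylated RNA of each animal was sequenced separately. No uninjured tissue or untreated animal was analysed here, so the vehicle-treated infarct was the only reference.

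Pericytes sit on capillaries within the basement membrane that they share with the endothelium, and they are recruited during vessel growth by PDGF-B from endothelial cells acting on PDGFRβ. Smooth muscle cells form the rings of arteries and arterioles and carry the contractile apparatus of smooth muscle actin and smooth muscle myosin, whose genes are controlled by serum response factor and myocardin through a short DNA element, the CArG box. After brain injury, PDGFRβ-positive cells with fibroblast features accumulate in the scar. Several of the markers are not particular to mural cells: Pdgfrb and Anpep are also transcribed in fibroblasts, Anpep in some myeloid cells, Cspg4 in oligodendrocyte precursors, and Acta2 and Tagln in myofibroblasts.

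Libraries held between 16616909 and 32933164 gene counts. Vehicle animals 1 and 3 stood apart from the rest: the summed level of 10 neuron markers was 1047 and 6137 CPM (counts scaled by library size to a common total) in them and 8.64 to 86.9 CPM in the other libraries. Calls that were lost or gained without these animals, and medians that moved, are therefore given beside the results. The labels name no batch. The infarct pieces carried both sets of markers: every mural gene was counted in every library, from 41 counts (the lowest library for Des) to 19627 counts (the highest for Anpep). In whole tissue, fewer cells of a type and less RNA per cell cannot be told apart.

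In HPβCD-treated infarcts, all 10 mural genes had higher mean levels than in vehicle-treated infarcts, and Pdgfrb and Anpep passed the test. Both are pericyte markers, and both were a little over 1 log2 unit higher. The other 4 pericyte genes differed by 0.30 to 0.44 on the log2 scale and the 4 smooth muscle genes by 0.25 to 0.67, and none of these 8 passed (1 of them, Acta2, had an unadjusted p under 0.05, at 0.0367). Called here means an adjusted p under 0.05 by the quasi-likelihood test of edgeR, with Benjamini-Hochberg adjustment over all 14736 genes tested. Called higher were 2 of 10 mural genes, against 1.17% of all tested genes, and called lower were 0 of 10, against 0.774%. Groups without overlap, HPβCD above vehicle, were found for 3 of the 10 genes (Pdgfrb, Abcc9 and Anpep), against 8.77% of all tested genes. The median log2 fold change was 0.39 over the 6 pericyte genes and 0.49 over the 4 smooth muscle genes, beside -0.05 over all tested genes, of which 45.95% had a value above 0. With Pdgfrb and Anpep left out, the pericyte median was 0.33. The plot of levels by animal shows these values.

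**Figure D1:**
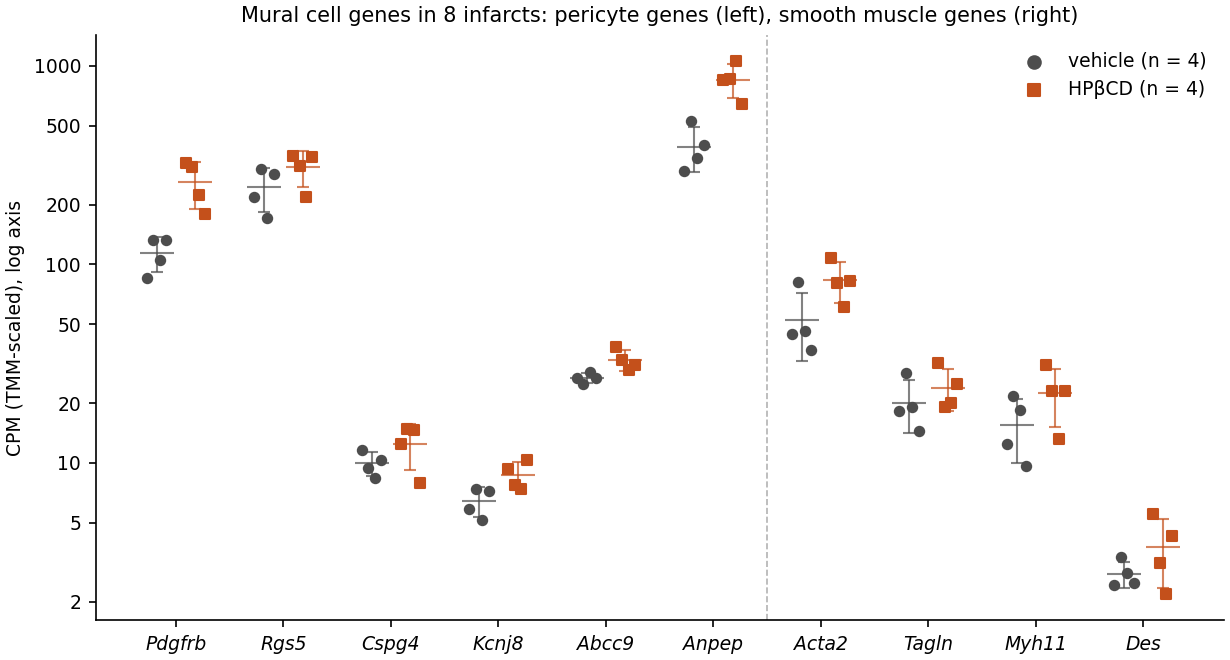
TMM-scaled CPM (log axis) of the 6 pericyte genes and the 4 smooth muscle genes in each of 4 vehicle-treated (circles) and 4 HPβCD-treated (squares) infarcts, animals 1 to 4 from left to right within a group; horizontal lines are means and error bars are SD. Only for Pdgfrb, Abcc9 and Anpep do all HPβCD animals lie above all vehicle animals.

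Pdgfrb encodes the receptor through which PDGF-B recruits and maintains pericytes. The gene (ENSMUSG00000024620, GRCm38 chr18:61045150-61085061, plus strand) was read at 85.6, 133, 106 and 133 CPM in vehicle animals 1 to 4, and at 324, 310, 224 and 179 CPM in HPβCD animals 1 to 4. The lowest HPβCD animal stood above the highest vehicle animal. Means were 114 ± 23.2 and 259 ± 69.4 CPM (SD, n = 4 each), 2.26-fold apart, with a log2 fold change of 1.18 (SE 0.23, adjusted p = 0.0483 by edgeR). The next protein-coding gene on the same strand, Csf1r, which encodes a macrophage growth factor receptor, begins 15.5 kb further on. It averaged 456 ± 46.4 CPM in vehicle animals and 499 ± 129 CPM under HPβCD, with a log2 fold change of 0.13 (SE 0.20, adjusted p = 0.72 by edgeR).

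Anpep encodes aminopeptidase N (CD13), a membrane peptidase on brain pericytes. This gene (ENSMUSG00000039062, chr7:79821803-79861059, minus strand) had 296, 525, 345 and 399 CPM in vehicle animals 1 to 4. HPβCD animals 1 to 4 had 852, 863, 1053 and 645 CPM. Again every HPβCD animal stood above every vehicle animal, and within the HPβCD group number 3 was the highest and number 4 the lowest. The means of 391 ± 98.2 and 853 ± 167 CPM (SD, n = 4 each) were 2.18-fold apart, with a log2 fold change of 1.12 (SE 0.23, adjusted p = 0.0488 by edgeR).

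Both calls lay close to the threshold. Both were lost without vehicle animals 1 and 3 (edgeR adjusted p = 0.0851 for Pdgfrb and 0.0827 for Anpep, log2 fold changes 0.97 and 0.90), where 0.485% of tested genes were called higher. With DESeq2 the same 2 members were called, with adjusted p = 0.00027 for Pdgfrb and 0.000221 for Anpep, and no other member was, while 6.92% of all tested genes were called higher. Across 16 alternative fits the calls of Pdgfrb and Anpep held in 8 each, and their log2 fold changes stayed between 0.97 and 1.33 and between 0.90 and 1.30. Leaving out any 1 of 5 animals lost both calls. For Pdgfrb the edgeR adjusted p was 0.155 without vehicle animal 1 and 0.066 without vehicle animal 4. It was 0.156 without HPβCD animal 1, 0.175 without HPβCD animal 2 and 0.0899 without HPβCD animal 3. In the same order, these fits called 0, 0, 4, 0 and 0 of all tested genes in either direction, so the loss was not particular to these members.

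**Figure D2:**
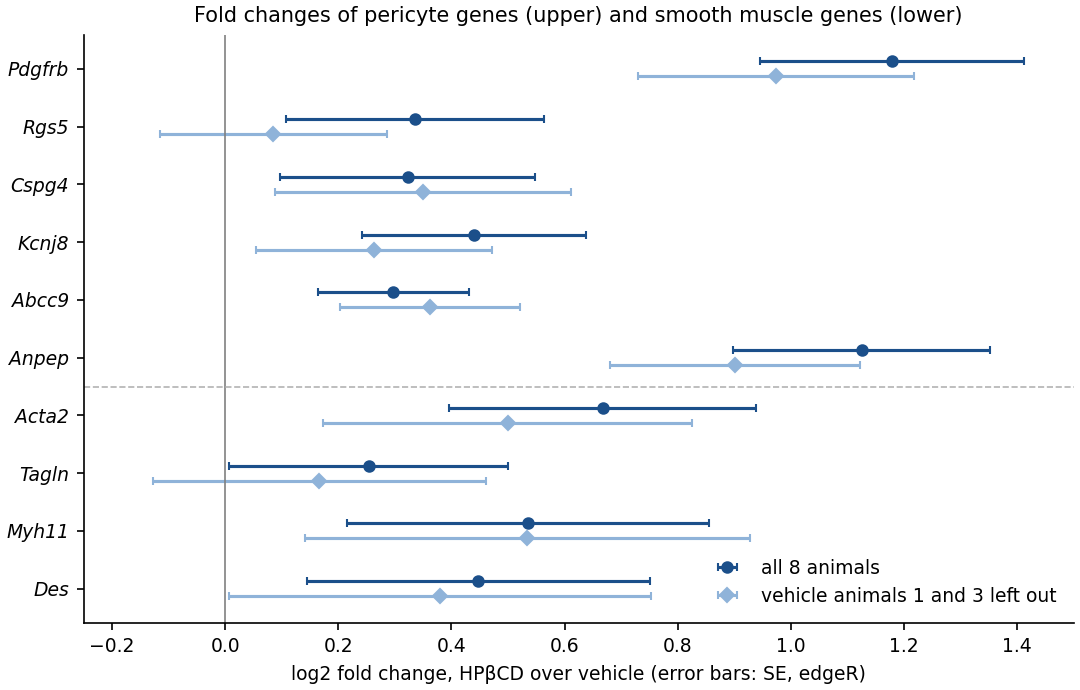
Log2 fold change of HPβCD over vehicle (x axis; error bars are SE from edgeR) for the 10 mural genes, with all 8 animals (circles) and with vehicle animals 1 and 3 left out (diamonds). All values are above 0, and Rgs5 lies at 0.34 with all animals and at 0.09 without the pair.

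Rgs5, an inhibitor of G protein signalling and among the most abundant transcripts of brain pericytes, is at chr1:169655501-169695813 (plus strand). It had 219, 303, 171 and 285 CPM in vehicle animals 1 to 4 and 353, 315, 219 and 348 CPM in HPβCD animals 1 to 4. HPβCD animal 3 sat at the level of vehicle animal 1, so the groups overlapped. The log2 fold change was 0.34 (SE 0.23, adjusted p = 0.38 by edgeR), and it was 0.09 without vehicle animals 1 and 3 (adjusted p = 0.83), the smallest value of Rgs5 over the alternative fits. The log2 ratio of Pdgfrb to Rgs5 in CPM, which is read only between animals, was -1.35, -1.18, -0.69 and -1.10 in vehicle animals 1 to 4 and -0.13, -0.02, 0.03 and -0.96 in HPβCD animals 1 to 4. In 3 HPβCD animals the ratio was above that of every vehicle animal, while HPβCD animal 4 lay within the vehicle range.

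Kcnj8 and Abcc9 encode the pore (Kir6.1) and the sulfonylurea receptor (SUR2) of the vascular ATP-sensitive potassium channel, and the genes are neighbours on the minus strand of chromosome 6, 16.2 kb apart with no protein-coding gene between them. Kcnj8 (chr6:142564837-142571614) had 5.88, 7.43, 5.14 and 7.26 CPM in vehicle animals and 9.37, 7.78, 7.41 and 10.4 CPM in HPβCD animals. The groups touched at a single pair, HPβCD animal 3 and vehicle animal 2, and the log2 fold change was 0.44 (SE 0.20, adjusted p = 0.19 by edgeR), or 0.26 without vehicle animals 1 and 3. Abcc9 (chr6:142587862-142702315) had 26.6, 24.9, 28.9 and 26.9 CPM in vehicle animals and 38.4, 33.0, 29.5 and 31.0 CPM in HPβCD animals. Its groups did not overlap, but the lowest HPβCD animal was close to the highest vehicle animal. Its log2 fold change was 0.30 (SE 0.13, adjusted p = 0.19 by edgeR), from 26.8 ± 1.62 to 33.0 ± 3.93 CPM (SD, n = 4 each). An opposite-strand gene covers 1.89% of the exon length of Abcc9. The pancreatic and neuronal counterparts of the channel subunits, Kcnj11 and Abcc8, did not pass the filter in the fit, with vehicle means of 2.33 ± 4.11 and 2.67 ± 4.73 CPM and HPβCD means of 0.029 ± 0.034 and 0.059 ± 0.087 CPM (SD, n = 4 each). These vehicle means rested on animals 1 and 3, with 0.792 and 8.47 CPM of Kcnj11 and 0.849 and 9.75 CPM of Abcc8. Vehicle animals 2 and 4 had 0.057 and 0 CPM of Kcnj11 and 0.029 and 0.054 CPM of Abcc8, within the range of the HPβCD animals for both genes.

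Cspg4 encodes the NG2 proteoglycan of pericytes and oligodendrocyte precursors (chr9:56865033-56899870, plus strand). Its levels were 11.7, 9.44, 8.41 and 10.3 CPM in vehicle animals 1 to 4 and 12.5, 14.8, 14.7 and 7.88 CPM in HPβCD animals 1 to 4. Of the HPβCD animals 3 were above all vehicle animals and number 4 was the lowest of all 8 animals. The log2 fold change was 0.32 (SE 0.23, adjusted p = 0.39 by edgeR). Of 10 other markers of oligodendrocyte precursors 9 had lower and 1 had higher fitted levels in HPβCD infarcts, with a median log2 fold change of -1.92. Among them Sox6, a transcription factor of these precursors, fell by 1.91 on the log2 scale (SE 0.38, adjusted p = 0.0483 by edgeR), and the exception was Pdgfra at 0.87 (SE 0.23, adjusted p = 0.069), which fibroblasts transcribe as well. Without vehicle animals 1 and 3 the median was -1.24 and 0 of the 10 were called (edgeR). Their part in the value of Cspg4 was not tested.

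Acta2 encodes smooth muscle α-actin (chr19:34241090-34255590, minus strand). It had 44.6, 81.4, 46.0 and 37.1 CPM in vehicle animals 1 to 4, and 108, 80.2, 60.9 and 82.9 CPM in HPβCD animals 1 to 4. Vehicle animal 2 stood at the level of HPβCD animals 2 and 4, so the groups overlapped. Means were 52.3 ± 19.8 and 83.1 ± 19.4 CPM (SD, n = 4 each), with a log2 fold change of 0.67 (SE 0.27, adjusted p = 0.15 by edgeR). This was the largest difference among the 4 smooth muscle genes. Without vehicle animal 2, Acta2 was called (0.97, SE 0.21, adjusted p = 0.0494 by edgeR), and without vehicle animals 1 and 3 it was at 0.50 and not called.

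Myh11, which encodes smooth muscle myosin heavy chain (chr16:14194535-14291372, minus strand), had 12.4, 21.6, 18.5 and 9.63 CPM in vehicle animals and 31.0, 23.0, 13.2 and 23.1 CPM in HPβCD animals. HPβCD animal 3 was lower than vehicle animals 2 and 3, and the log2 fold change was 0.54 (SE 0.32, adjusted p = 0.31 by edgeR). Des, which encodes the intermediate filament desmin (chr1:75360329-75368579, plus strand), was the rarest of the 10 genes. Its levels were 2.43, 3.36, 2.78 and 2.47 CPM in vehicle animals and 5.52, 3.13, 2.20 and 4.28 CPM in HPβCD animals, from 41 to 117 counts per library. HPβCD animal 3 was the lowest of all animals, and the log2 fold change was 0.45 (SE 0.30, adjusted p = 0.37 by edgeR). An opposite-strand gene covers 5.86% of the exon length of Des.

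Tagln encodes transgelin (SM22α), an actin-binding protein of smooth muscle (chr9:45929619-45936058, minus strand). Its levels were 18.2, 28.5, 19.1 and 14.5 CPM in vehicle animals and 31.8, 19.1, 20.1 and 24.98 CPM in HPβCD animals. Vehicle animal 2 was above 3 of the HPβCD animals, and the log2 fold change was 0.25 (SE 0.25, adjusted p = 0.55 by edgeR). Genes on the opposite strand, Pcsk7 and Gm48529, together cover 67.9% of the exon length of Tagln. The strand option of the counting is not given in the sources used here. The value of Tagln is therefore uncertain. The 4 smooth muscle genes ordered the animals alike: HPβCD animal 1 had the highest level of each, vehicle animal 2 had the highest vehicle level of each, and vehicle animal 4 had the lowest level of Acta2, Tagln and Myh11 among all animals.

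Because these genes are textbook targets of serum response factor, the promoters of the members were searched on both strands for the CArG box, using RefSeq promoters of GRCm38.p6 that run from 250 bases before to 50 bases after the start. The table holds 7 of the 10 members (5 pericyte and 2 smooth muscle genes). None of the 7 held an exact box, which 1.63% of the 32851 promoters in the table hold. When 1 base of the central stretch was allowed to be G or C, a search chosen after the exact one had found none, Acta2 alone among the 7 matched, and 8.50% of all promoters did. Its windows begin 84 and 34 bases before the start. The promoters of Acta2, with both windows in capitals, of Des, the other smooth muscle member in the table, and of Anpep, the called pericyte gene in the table, are shown for comparison, each 5′ to 3′ on the strand of its gene. They lie at chr19:34255324-34255623 (minus strand), chr1:75360042-75360341 (plus strand) and chr7:79848161-79848460 (minus strand), and the RefSeq start of Anpep lies inside the longer GENCODE gene.
Acta2: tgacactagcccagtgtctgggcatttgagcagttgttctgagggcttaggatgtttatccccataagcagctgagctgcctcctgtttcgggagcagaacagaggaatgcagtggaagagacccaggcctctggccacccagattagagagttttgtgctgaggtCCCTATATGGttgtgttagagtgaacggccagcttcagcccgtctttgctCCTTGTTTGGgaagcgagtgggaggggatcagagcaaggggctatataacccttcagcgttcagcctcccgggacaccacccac
Des: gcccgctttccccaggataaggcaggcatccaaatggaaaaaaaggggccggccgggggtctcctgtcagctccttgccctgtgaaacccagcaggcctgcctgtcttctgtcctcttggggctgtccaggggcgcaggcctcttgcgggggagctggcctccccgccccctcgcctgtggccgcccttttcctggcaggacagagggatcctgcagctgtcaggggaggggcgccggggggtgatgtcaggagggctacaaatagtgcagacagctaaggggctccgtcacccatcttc
Anpep: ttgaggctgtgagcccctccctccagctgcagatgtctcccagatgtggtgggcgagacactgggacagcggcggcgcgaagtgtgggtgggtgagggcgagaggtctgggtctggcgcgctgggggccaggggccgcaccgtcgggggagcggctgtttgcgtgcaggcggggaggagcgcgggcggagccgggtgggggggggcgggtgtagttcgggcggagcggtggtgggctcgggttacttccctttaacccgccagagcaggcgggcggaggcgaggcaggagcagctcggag
A match describes letters in this window and is not a measured binding site. Among 28 other contractile genes in the promoter table, 5 held an exact box (Cnn2, Filip1l, Myl6, Myl9 and Vcl), beside 1.81% of the 27025 genes in the table. None of these 5 was called, and their log2 fold changes were -0.10 for Cnn2, -0.49 for Filip1l, 0.43 for Myl6, 0.30 for Myl9 and 0.49 for Vcl.

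To compare the pericyte genes with the smooth muscle genes, each animal was given a score for either group, the mean of log2 CPM after each gene had been centred on its mean over all 8 animals. Pericyte scores were -0.43, -0.12, -0.49 and -0.17 in vehicle animals 1 to 4 and 0.47, 0.39, 0.24 and 0.12 in HPβCD animals 1 to 4. Smooth muscle scores were -0.41, 0.28, -0.19 and -0.64 in vehicle animals and 0.73, 0.13, -0.27 and 0.35 in HPβCD animals. The pericyte scores of the groups did not overlap, with a difference of means of 0.61, whereas the smooth muscle scores overlapped, with a difference of 0.47. Without Pdgfrb and Anpep the other 4 pericyte genes gave a difference of 0.34, again without overlap.

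The score of smooth muscle minus that of pericyte genes, which asks whether one group moved more than the other, was 0.03, 0.41, 0.31 and -0.47 in vehicle animals 1 to 4 and 0.26, -0.26, -0.51 and 0.23 in HPβCD animals 1 to 4. The groups overlapped almost fully. The means differed by -0.14, less than the SD within either group (0.39 in vehicle and 0.38 in HPβCD animals). The difference lay between -0.32 and 0.0072 when each animal was left out in turn. By medians of the fitted log2 fold changes the smooth muscle genes were ahead (0.49 against 0.39), and by means the pericyte genes were (0.62 against 0.48). No difference between pericyte and smooth muscle genes larger than the spread between animals was therefore measured.

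**Figure D3:**
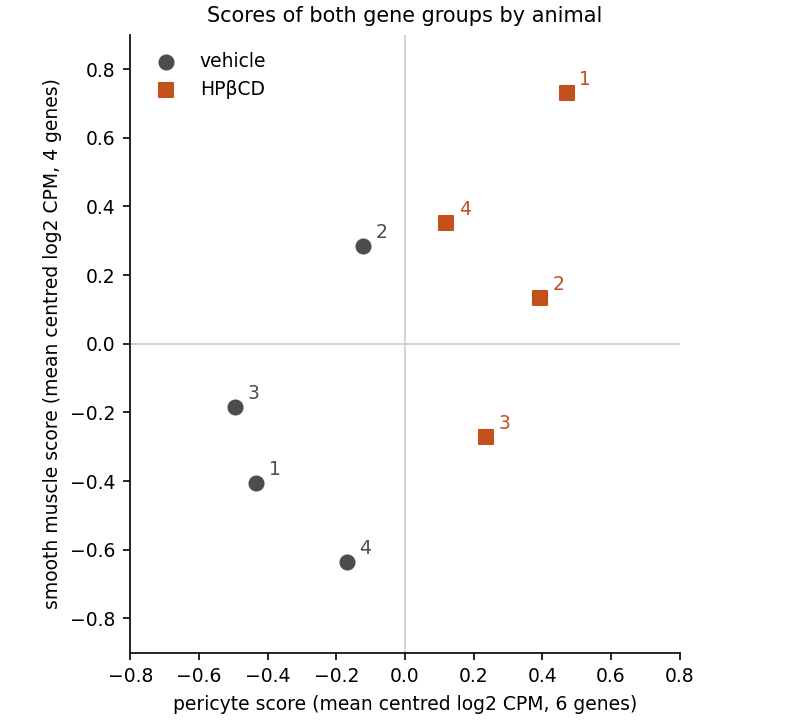
Smooth muscle score (y axis, 4 genes) against pericyte score (x axis, 6 genes), both as mean centred log2 CPM, for each of the 4 vehicle (circles) and 4 HPβCD (squares) animals, with animal numbers. Groups separate along the pericyte axis, from -0.12 to 0.12, and overlap along the smooth muscle axis, where vehicle animal 2 lies above HPβCD animals 2 and 3.

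Levels were compared between genes as RPKM (CPM per kilobase of exon). In vehicle infarcts Anpep was highest at 94.6 ± 23.8 RPKM, ahead of Rgs5 at 53.8 ± 13.4, Acta2 at 23.8 ± 9.02, Pdgfrb at 20.9 ± 4.23 and Tagln at 10.1 ± 2.999 RPKM. Further down were Abcc9 at 3.20 ± 0.194, Kcnj8 at 2.52 ± 0.433, Myh11 at 2.05 ± 0.725, Cspg4 at 0.835 ± 0.115 and Des at 0.736 ± 0.114 RPKM (SD, n = 4 each). Neighbours whose ranges over the vehicle animals overlapped were Acta2 and Pdgfrb, Kcnj8 and Myh11, and Cspg4 and Des. In HPβCD infarcts the mean of Pdgfrb (47.3 ± 12.7 RPKM) was above that of Acta2 (37.8 ± 8.84 RPKM), by less than the SD of Pdgfrb, and Anpep stood at 206 ± 40.3 and Rgs5 at 67.9 ± 13.7 RPKM.

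Mural cells depend on vessels, so the members were also set against 16 endothelial genes. The endothelial genes themselves had a median log2 fold change of 0.46, with 14 of 16 higher and 0 called in edgeR (6 higher and 1 lower at an unadjusted p under 0.05, and 4 higher and 1 lower called in DESeq2), and their summed level was 1167 to 1404 CPM in vehicle and 1377 to 1966 CPM in HPβCD animals. Their most abundant members were the glucose transporter Slc2a1 (log2 fold change -0.07), the efflux pump Abcb1a (0.70) and the clotting factor Vwf (0.55). Relative to the mean log2 CPM of the endothelial genes, Pdgfrb was 0.76 higher and Anpep 0.73 higher in HPβCD animals, each without overlap of the groups. Acta2 was 0.30 and Myh11 0.14 higher on this scale, with overlap. The other 6 members lay between -0.13 (Tagln) and 0.04 (Kcnj8), all with overlap. On the same scale the pericyte score differed by 0.21 and the smooth muscle score by 0.07, both with overlap.

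**Figure D4:**
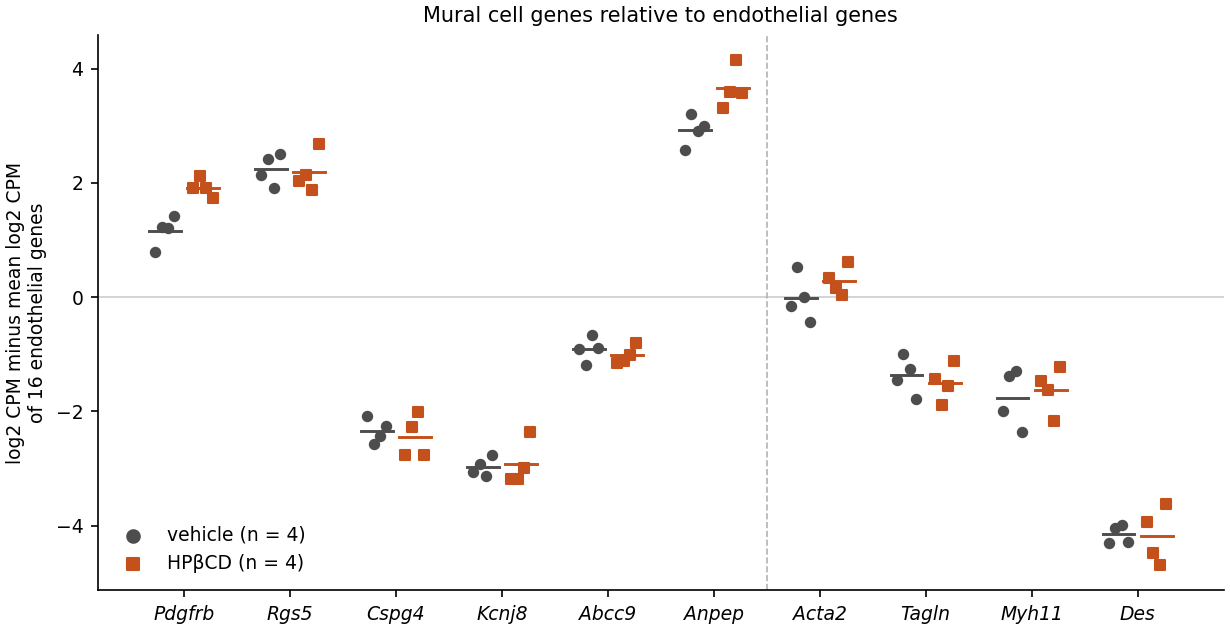
Log2 CPM of each mural gene minus the mean log2 CPM of 16 endothelial genes (y axis) in 4 vehicle (circles) and 4 HPβCD (squares) animals, numbers 1 to 4 from left to right; lines are group means. Pdgfrb and Anpep keep a gap between the groups, with differences of 0.76 and 0.73, and the other 8 genes overlap.

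Most markers of fibroblasts moved with Pdgfrb and Anpep. Of 13 tested fibroblast genes (14 listed) 12 had higher fitted levels in HPβCD infarcts, 3 were called and the median log2 fold change was 1.01. Those called were the collagen genes Col1a1 (1.61, SE 0.29, adjusted p = 0.0483 by edgeR) and Col1a2 (1.46, SE 0.24, adjusted p = 0.0462) and Serpinf1 (1.24, SE 0.22, adjusted p = 0.0483), which encodes a secreted inhibitor of vessel growth. The exception was Slc6a13 (-0.84, SE 0.17, adjusted p = 0.0502 by edgeR), named after its value was seen. Its level in every HPβCD animal was below that in every vehicle animal, and its log2 fold change was -0.96 without vehicle animals 1 and 3. Beside Col1a2, the most abundant were Dcn (0.80, SE 0.30, adjusted p = 0.13) and Col3a1 (1.01, SE 0.47, adjusted p = 0.20). The summed level of the fibroblast list was 3070 to 7430 CPM in vehicle and 10280 to 11520 CPM in HPβCD animals, with no listed gene at 0 in all libraries. The log2 ratio of Pdgfrb to Col1a1 was -1.40 ± 0.55 in vehicle and -1.91 ± 0.15 in HPβCD animals (SD, n = 4 each), with overlap, and that of Anpep to Col1a1 was 0.36 ± 0.52 and -0.17 ± 0.28, also with overlap. Of 10 myofibroblast genes, a list for cells that also carry Acta2, 9 were higher with a median of 0.94. The 1 called was Cdh2 (N-cadherin), which fell by 2.33 on the log2 scale (SE 0.44, adjusted p = 0.0483 by edgeR). Cdh2 was highest in vehicle animals 1 and 3, at 32.0 and 35.1 CPM, beside 10.9 and 15.3 CPM in vehicle animals 2 and 4. The most abundant were Fn1 (0.96, adjusted p = 0.064 by edgeR), Col12a1 (1.23, adjusted p = 0.066) and Ltbp2 (0.94, adjusted p = 0.093). The summed level of the myofibroblast genes was 825 to 1474 CPM in vehicle and 1687 to 2387 CPM in HPβCD animals. Without vehicle animals 1 and 3 the medians were 0.55 for the fibroblast list, with 2 genes called (Serpinf1 was lost, adjusted p = 0.0572 by edgeR), and 0.53 for the myofibroblast list, with 0 called.

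Of 10 macrophage genes 7 were higher with a median of 0.28, and Gpnmb, a gene of lipid-laden macrophages, was called (1.38, SE 0.28, adjusted p = 0.0483 by edgeR). Without vehicle animals 1 and 3 the median was 0.12 and the call of Gpnmb was lost (1.11, adjusted p = 0.0647 by edgeR). The summed level of the macrophage genes was 5454 to 9885 CPM in vehicle and 12180 to 19990 CPM in HPβCD animals. Gpnmb alone made up most of this sum, with 4154 ± 1121 CPM in vehicle and 10800 ± 2648 CPM in HPβCD animals (SD, n = 4 each). The next most abundant genes, Spp1 (0.09, adjusted p = 0.90 by edgeR) and Csf1r (0.13, adjusted p = 0.72), were not called. No gene of this list or of the myofibroblast list was at 0 in all libraries. The 6 tested markers of neutrophils and monocytes had a median of -0.20 with 0 called in edgeR (1 lower at an unadjusted p under 0.05) and 0 in DESeq2, and a median of -0.45 without vehicle animals 1 and 3. The 8 astrocyte markers had a median of -1.25 with 0 called in edgeR (5 lower at an unadjusted p under 0.05) and 4 called lower in DESeq2. Without vehicle animals 1 and 3 the astrocyte median was -0.88. Markers of skeletal muscle, which shares contractile genes with smooth muscle and could be carried over in dissection, were nearly absent. Under 1 CPM were 9 of 12 in every HPβCD library and 9 in every vehicle library, and Tnnc2 was at 0 in all. The list summed to 2.69 to 40.1 CPM in vehicle and 3.28 to 4.83 CPM in HPβCD animals. The 40.1 CPM was that of vehicle animal 3, where Pvalb had 28.7 and Acta1 7.81 CPM. Vehicle animals 1, 2 and 4 had 6.39, 2.73 and 2.69 CPM. The part of fibroblasts, myofibroblasts and macrophages in the values of the mural genes was not tested.

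Among 25 other pericyte genes, 22 could be tested, of which 14 had higher and 8 lower fitted levels and 0 were called by edgeR. At an unadjusted p under 0.05, 3 were higher and 3 lower in edgeR, and DESeq2 called 2 higher and 3 lower. Their median log2 fold change was 0.25, and 0.02 without vehicle animals 1 and 3. The most abundant were Rgs4, a relative of Rgs5 that neurons transcribe as well (353 ± 426 CPM in vehicle and 34.6 ± 9.47 in HPβCD animals, -3.35, adjusted p = 0.10 by edgeR), the transcription factor gene Zic1 (0.32, adjusted p = 0.53) and Nid1, a basement membrane gene (0.97, SE 0.24, adjusted p = 0.064). The value of Rgs4 was -0.14 without vehicle animals 1 and 3. In 3 of the 22, beside 8.77% of all tested genes, the groups did not overlap with HPβCD higher: Nid1, the receptor gene Notch3 (1.02, SE 0.24, adjusted p = 0.062) and the endothelin receptor gene Ednra (0.79, SE 0.29, adjusted p = 0.12). The 3 lower at an unadjusted p under 0.05 were Rgs4, Atp13a5 (-0.89, SE 0.25, adjusted p = 0.078 by edgeR) and Gucy1b1 (-1.75, SE 0.66, adjusted p = 0.14). Without vehicle animals 1 and 3, Atp13a5 was at -0.78 and Gucy1b1 at -0.01. Notch3, Ednra, Atp13a5 and Gucy1b1 were singled out after their values had been seen. Higd1b, Carmn and Foxs1 were too low to be tested.

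Of 30 other contractile genes, 27 could be tested, and 20 had higher and 7 lower fitted levels, with a median log2 fold change of 0.21. Actn1, which encodes the actin crosslinker α-actinin, was the single call: 72.3 ± 5.52 CPM in vehicle and 122 ± 20.1 CPM in HPβCD animals (SD, n = 4 each), with a log2 fold change of 0.76 (SE 0.15, adjusted p = 0.0483 by edgeR). Without vehicle animals 1 and 3 no gene of the list was called. The most abundant genes of the list were the actin crosslinker Flna (0.93, SE 0.25, adjusted p = 0.072), Cald1 (0.26, adjusted p = 0.61), whose product caldesmon restrains actomyosin, and the focal adhesion gene Lpp (0.57, adjusted p = 0.22). Flna, Actn1 and Lpp are transcribed in many cell types. Smtn, singled out after its value was seen, was at 19.9 ± 3.87 and 46.6 ± 16.8 CPM (1.23, SE 0.28, adjusted p = 0.059). The smooth muscle genes Cnn1, Actg2 and Ppp1r14a were too low to be tested.

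**Figure D5:**
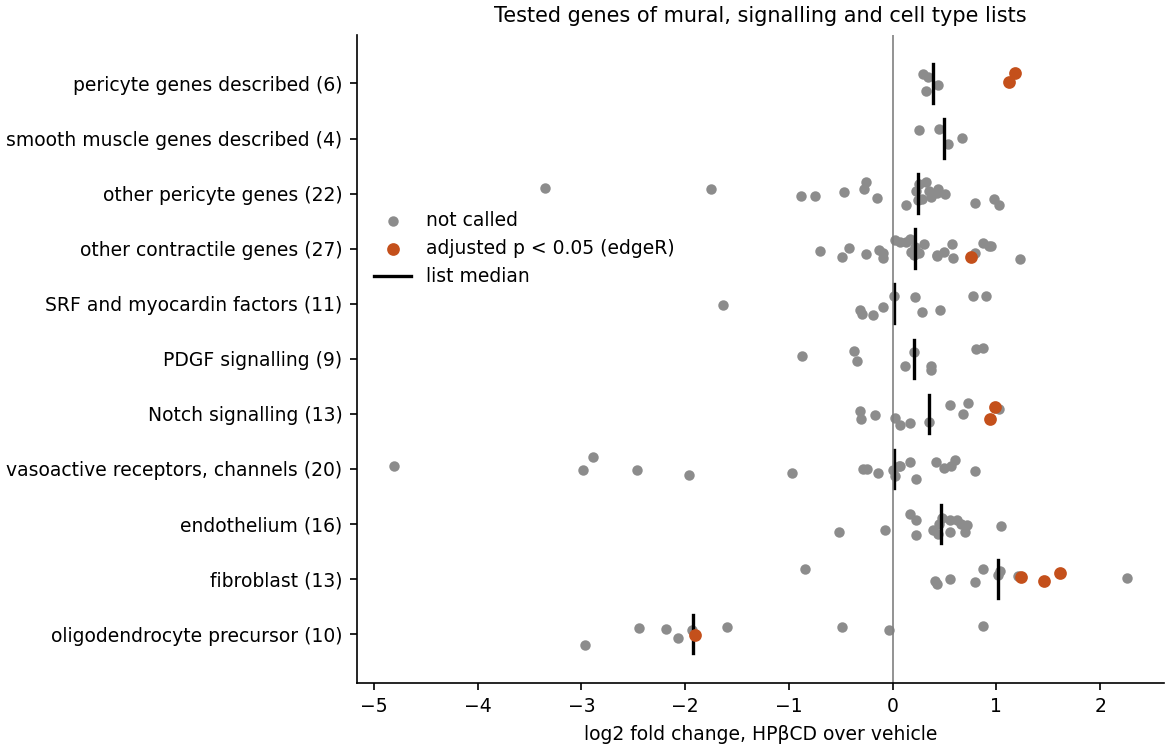
Log2 fold change of HPβCD over vehicle (x axis) for every tested gene of the mural, signalling and cell type lists (rows, number of tested genes in brackets); orange points are called by edgeR and black bars are list medians. Medians run from -1.92 for oligodendrocyte precursor genes to 1.01 for fibroblast genes, with 0.39 and 0.49 for the pericyte and smooth muscle genes described.

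Regulators of contractile genes did not share a direction. They were not divided into activators and repressors of these genes. Of 11 genes of serum response factor, myocardin and their partners, 6 were higher and 5 lower, 0 were called by edgeR (3 higher and 1 lower at an unadjusted p under 0.05, and 2 higher and 1 lower called by DESeq2). The median log2 fold change was 0.01, and 0.22 without vehicle animals 1 and 3, where Mef2c alone was called, lower (-0.75, adjusted p = 0.0468 by edgeR). The most abundant were the coactivator gene Mrtfb (-0.32, adjusted p = 0.55), Mef2c (-1.63, adjusted p = 0.090), which neurons and microglia transcribe as well, and Tead1 (0.21, adjusted p = 0.49). Srf itself averaged 14.7 ± 3.39 CPM in vehicle animals and 14.7 ± 2.78 CPM under HPβCD. Myocd, which encodes the smooth muscle coactivator myocardin, averaged 0.525 ± 0.0856 and 0.915 ± 0.296 CPM, near the lower end of what could be tested. Its log2 fold change was 0.77 (SE 0.33, adjusted p = 0.17 by edgeR), and 0.64 without vehicle animals 1 and 3. The 2 called higher by DESeq2 were Klf4 (0.90, SE 0.22, edgeR adjusted p = 0.064), whose groups did not overlap, and Mrtfa (0.46, SE 0.15, edgeR adjusted p = 0.094). Srf, Myocd, Klf4 and Mrtfa were named after their values had been seen.

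Of 9 genes of PDGF signalling, 6 were higher and 3 lower, with a median of 0.21 (0.03 without vehicle animals 1 and 3). None was called by edgeR, 2 were higher and 2 lower at an unadjusted p under 0.05, and DESeq2 called 2 higher and 1 lower. Without vehicle animals 1 and 3, edgeR called 1 lower, the sphingosine-1-phosphate receptor gene S1pr3 (-1.05, adjusted p = 0.0304), which was at -0.88 (adjusted p = 0.12) with all animals and is named after its value was seen. Pdgfb, which encodes the endothelial ligand of PDGFRβ and was named after its value was seen, had 34.1 ± 2.08 CPM in vehicle and 44.2 ± 13.5 CPM in HPβCD animals (0.37, SE 0.21, adjusted p = 0.29). The most abundant genes of the list were Nrp1 (0.81, adjusted p = 0.078), a co-receptor, Pdgfra (0.87, adjusted p = 0.069), the sister receptor of Pdgfrb, and the phosphatase gene Ptpn11 (-0.38, adjusted p = 0.098). The log2 ratio of Pdgfrb to Pdgfra differed by 0.23 between the groups, with overlap.

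Notch signalling passes from endothelial ligands to Notch3 on mural cells and maintains smooth muscle. Of 13 tested genes of this pathway (14 listed) 10 were higher and 3 lower, with a median of 0.35, and 2 were called. These were the endothelial ligand gene Dll4, from 5.26 ± 0.456 to 10.1 ± 1.49 CPM (0.94, SE 0.17, adjusted p = 0.0483 by edgeR), and the target gene Hes1, from 18.6 ± 4.98 to 37.0 ± 4.21 CPM (0.99, SE 0.20, adjusted p = 0.0499). Neither was called without vehicle animals 1 and 3 (log2 fold changes 0.86 and 0.73). The most abundant genes were Notch2 (0.55), the ligand gene Jag1 (0.68) and the DNA-binding partner Rbpj (0.02), none of them called. Of 20 tested genes for vasoactive receptors and channels (24 listed) 11 were higher and 9 lower with a median of 0.01, and 0 were called by edgeR (3 higher and 6 lower at an unadjusted p under 0.05, and 5 lower called by DESeq2). Without vehicle animals 1 and 3 the median was -0.06 and 1 gene was called higher by edgeR, the calcium channel gene Cacna1c (0.86, adjusted p = 0.0356), which was at 0.03 (adjusted p = 0.97) with all animals and is also named after its value was seen. Beside Ednra, the most abundant were Npy1r, the receptor of neuropeptide Y (0.50, adjusted p = 0.20), and the calcium release channel gene Itpr1 (-1.96, adjusted p = 0.11), which was at -0.14 without vehicle animals 1 and 3.

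A search over 13981 genes outside the list with a mean of at least 1 CPM gave those whose log2 CPM followed either score most closely over the 8 animals. For the smooth muscle score they included Morf4l2 (Pearson r = 0.93), Ptprb (0.90), Lama5 (0.90) and Adgrf5 (0.89), of which Ptprb and Adgrf5 encode endothelial surface proteins and Lama5 a laminin chain of vessel basement membranes. For the pericyte score they were Tmem164, Fam129b, Slc41a1, Tpcn2 and Pira2, all at r = 0.99, and of these Pira2, a receptor gene of myeloid cells, was called (1.18, adjusted p = 0.0483 by edgeR). The 8 points share the group difference and the same libraries, so the r values describe these animals and carry no test. None of the other genes named for either score was called, with log2 fold changes from 0.16 for Morf4l2 to 1.20 for Tpcn2.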

How the data were processed

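Gene expression was measured by RNA-Seq of polyadenylated RNA (stranded libraries) from infarcts of 8 mice, grouped by the treatment given in the sample labels. The values deposited by the authors are raw counts per gene, 1 table per animal, made with bcl2fastq 2.19, Trimmomatic 0.32, STAR 2.5.2b on GRCm38 and htseq-count; the version and strand option of the counting are not given in the sources used here. The 5 lines of reads assigned to no gene (26.6% to 36.6% of a library) were left out. Symbols matched 45143 of 46078 identifiers, and coordinates came from GENCODE M21 on GRCm38. Gene totals were 16616909 to 32933164, and low counts limit the precision of rare genes such as Des.

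Differences were tested with edgeR 4.0.16 (R 4.3.3): robust quasi-likelihood F test, TMM scaling, filterByExpr, Benjamini-Hochberg adjustment over 14736 genes, threshold 0.05. The SE of a log2 fold change is its size over the root of the F value. CPM are TMM-scaled, and a prior count of 2 was added for log2 CPM. RPKM were computed from the union exon length. The study used DESeq2, which was run here as an alternative (version 1.42.0). Beside it stood limma-voom with quality weights per library (limma 3.58.1), named limma-voom for short. Further alternatives changed the scaling, filter, depth, replicate block and animals. The fits were tested on simulated data. No 2 libraries agreed within sampling noise.

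The members, context lists and alternatives were chosen with earlier results of these data known. Members were all named; from each context list, called genes (at most the 6 with the smallest p) and the 3 most abundant were named, and for either score the 5 genes with the highest r, of which 1 is not reported here; exceptions are stated. P-values measure the spread between these animals.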

Additional observations from a re-analysis of the deposited data

How the results depend on the processing

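All 10 mural genes stayed higher in HPβCD infarcts in all 16 alternative fits, and the medians and the difference between the scores moved by less than the spread between animals. Counts of calls moved more. The 287 genes called became 2619 with DESeq2, 3253 with limma-voom, 11 with scaling by library totals, 9 with the replicate block and 0 to 629 when an animal was left out. The 2 members called became 4 with limma-voom (Acta2 and Abcc9 added), 0 with library totals, 0 with the replicate block, 0 without vehicle animals 1 and 3, and 0 to 3 when an animal was left out (3 without vehicle animal 2, with Acta2 added). The 1 other contractile gene called became 6 with DESeq2, 9 with limma-voom, 2 without a filter, 0 with library totals, 0 with the replicate block, 0 without vehicle animals 1 and 3, and 0 to 2 when an animal was left out. The 0 other pericyte genes called became 5 with DESeq2, 4 with limma-voom and 0 to 2 when an animal was left out. The cause of these changes was not tested. Some of the uncalled context genes named changed sign without vehicle animals 1 and 3. They were Zic1 (-0.07), Cald1 (-0.12), Mrtfb (0.22), Tead1 (-0.01), Rbpj (-0.20), Slc2a1 (0.19) and Spp1 (-0.34). Genes at an unadjusted p under 0.05 numbered 4094.

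Equal animal numbers did not pair the samples: deviations from the group means correlated at -0.26, 0.24, 0.33 and 0.10 for numbers 1 to 4. With the replicate block the adjusted p was 0.0894 for Pdgfrb and 0.0876 for Anpep.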
